A study of Mus musculus with 8 samples.

Results

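Voltage-gated sodium and calcium channels were examined through the 40 protein-coding genes whose symbols start with Scn and a digit, or with Cacna1, Cacna2d, Cacnb or Cacng, among the 38924 genes of each count table. The sodium channel genes were 10 alpha and 4 beta subunit genes. The calcium channel genes were 10 alpha1 genes (4 Cav1, 3 Cav2 and 3 Cav3), 4 alpha2delta, 4 beta and 8 gamma genes. The rule uses symbols alone and no measured value.

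The RNA came from embryos of bacTRAP mice. These mice carry a ribosomal protein with a tag, expressed from the regulatory sequence of a selected gene, and pulling down the tag recovers translating RNA of the cells that use this gene. The design text names lines driven by the dopamine transporter gene (DAT, Slc6a3) and by the serotonin transporter gene (SLC6A4), while the description of each library names the Slc6a3 line, so the groups follow the titles. The labels state no other genotype, strain or treatment. The groups were midbrain neurons labelled datL (2 libraries) and datM (2), midbrain dopamine neurons labelled Lateral (1) and Medial (1), and hindbrain serotonin neurons (2). The datL and datM titles do not say dopamine, and these libraries are counted as dopamine libraries here by the dat in their titles. The stated dissection age was embryonic day 15, per the labels, with 3 further days in culture for midbrain called day 18. Which libraries that was is not said, but E18 stands in the file headers of Lateral and Medial. The labels also do not spell out L and M, and do not say whether replicates were separate embryos or pools, so a p-value here reflects variation among libraries, which could be technical only.

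Sodium channels carry the fast inward current of the action potential through a pore-forming alpha subunit, and beta subunits tune gating and placement in the membrane. Calcium channels are built on an alpha1 subunit: Cav1 genes encode L-type channels, Cav2 genes the P/Q-, N- and R-type channels of nerve terminals and dendrites, and Cav3 genes the low-threshold T-type channels. Beta and alpha2delta subunits help alpha1 reach the membrane, and most of the brain's gamma family members act mainly as partners of AMPA-type glutamate receptors. Adult dopamine neurons of the midbrain are slow pacemakers, and the L-type subunit Cacna1d is known for its part in their rhythmic calcium entry. Scn3a is known as an alpha subunit of the embryonic brain, and Scn1a and Scn8a as subunits that increase as neurons mature.

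The alpha and alpha1 genes share a common plan, and a short stretch of the pore tells sodium from calcium channels. The coding bases around the selectivity-filter codon of the first pore loop are shown for 9 of these genes, to set the sodium and calcium pores side by side. Capitals mark that codon, which encodes aspartate in sodium channels and glutamate in calcium channels. Each line is 27 bases of the coding strand, 5′ to 3′, within a single exon of a GENCODE M21 transcript (GRCm38, the assembly that mm10 also names).
Scn3a: ctcatgactcaaGACtactgggagaac
Scn2a: cttatgactcaaGACttctgggaaaac
Scn8a: ctcatgactcagGACtactgggagaac
Scn9a: ctaatgactcagGACtactgggagaac
Scn11a: gttatgactcaaGACtcctgggagaag
Cacna1d: tgcattaccatgGAGggctggacagat
Cacna1b: tgtatcaccatgGAGggctggactgac
Cacna1e: tgcatcactatgGAAgggtggaccact
Cacna1h: gtcatcacactgGAGggctgggtggac
The Scn3a window lies in exon 9 at chr2:65521804-65521830 on the minus strand, and that of Cacna1d in exon 7 at chr14:30178557-30178583 on the minus strand. Against Scn3a, the window differed at 1 base in Scn8a, at 2 in Scn9a, at 3 in Scn2a, at 4 in Scn11a and at 15 in Cacna1d. The codon after the capitals encodes an aromatic residue in Scn2a, Scn3a, Scn8a and Scn9a, and serine in Scn11a. That position is known to set sensitivity to tetrodotoxin, which blocks the aromatic class at low doses. The site was not found by the same search in Scn7a and Cacna1s.

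Total counts per library ran from 22417739 to 33216710, and channel genes took 0.0744% to 0.183% of them. The file headers place datL and datM in a run of October, and the other 4 libraries in lane 8 of a different run. The October libraries detected 11708 to 12509 genes and the lane 8 libraries 13703 to 15656. The labelled neuron types were compared with defining markers. Slc6a3, the dopamine transporter gene, stood at 31.9 to 740 CPM (counts divided by the library total and scaled to a common size) in the dopamine libraries and at 0.171 and 0.679 CPM in the serotonin libraries. In the serotonin libraries Slc6a4 stood at 1196 and 1075 CPM. It was at 0 in all 4 October libraries, and at 5.27 CPM in Lateral and 3.93 CPM in Medial. The whole lists separated the libraries less. Summed over 12 dopamine neuron markers, the datL libraries had 451 and 1110 CPM and the serotonin libraries 1275 and 1084 CPM, while datM, Lateral and Medial had 1629 to 2902 CPM. The sum over 8 serotonin neuron markers was 7037 and 6072 CPM in the serotonin libraries, 460 CPM in datL 1 and 37.1 to 262 CPM in the other dopamine libraries. In datL 1 neither Slc6a4 nor Tph2, both on this list, had a read, so its sum came from other genes of the list. Markers of cells other than these neurons were counted in every library. Summed over 14 progenitor and astrocyte markers, the level was 2100 to 5242 CPM in the dopamine libraries and 954 to 1228 CPM in the serotonin libraries. The sum over 8 oligodendrocyte markers was 38.7 to 429 CPM against 21.4 to 36.9 CPM, and that over 9 general neuronal markers 13424 to 18806 CPM across all libraries. For 7 sensory neuron markers the sums were 53.7 to 161 CPM in the dopamine libraries and 22.2 to 41.5 CPM in the serotonin libraries, and for 8 microglia and blood markers 102 to 619 CPM and 28 to 40.8 CPM. Each marker of these lists had reads in some library except Csf1r, a microglial receptor gene, which was at 0 in all. The part of these other cells in the channel values was not tested.

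Of the 40 channel genes, 21 were counted in all 8 libraries and 9 reached 5 CPM in each of them: Scn2a, Scn3a, Scn8a, Scn2b, Scn3b, Cacna1d, Cacna2d3, Cacnb3 and Cacnb4. Another 7 stayed under 1 CPM in every library. These were Scn4a, the skeletal muscle sodium channel, Scn10a of sensory neurons, Scn4b, the skeletal muscle Cacna1s, the retinal Cacna1f, the muscle subunit Cacng1, and Cacng6. Scn4b and Cacng6 had no read in any library, and 3 counts in a library, the limit that a count of 0 allows, would be 0.0903 to 0.134 CPM. The October libraries had no read in 13 to 15 channel genes each and the lane 8 libraries in 6 to 10. The map of all channel genes by library shows these zeros in blocks, for example: Scn11a, Scn10a, Cacna1f, Cacna1s and Cacng1 were at 0 in all 4 October libraries and had reads in at least 1 lane 8 library. Intervals and limits of this kind cover counting error only, since the PCR copies carried no molecular identifiers.

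**Figure D1:**
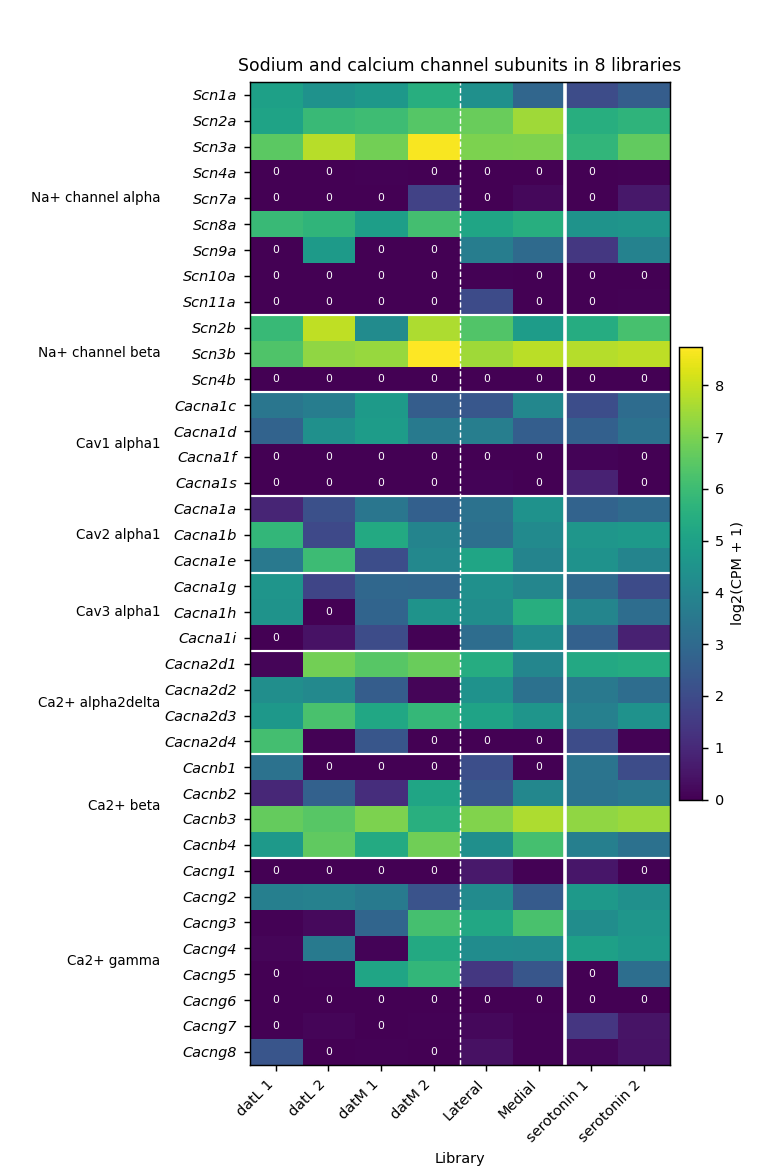
Level of the channel genes (rows, by subunit class) in each of the 8 libraries (columns), as log2(CPM + 1) on the colour scale; a written 0 marks no read. The dashed line parts the October libraries from lane 8, and the solid line the dopamine libraries from the 2 serotonin libraries. Scn3a, Scn3b, Scn2a and Cacnb3 are bright in every column, and many zeros stand in the 4 October columns.

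Among the sodium channel alpha genes, Scn3a and Scn2a made up most of the RNA. After dividing CPM by exonic length, so that genes can be compared with each other, Scn3a took a mean of 44.1% of the alpha total over the 8 libraries (30.5% to 62.6%) and Scn2a 32.5% (18% to 55.5%). Scn8a followed with 13.6% (10.1% to 26.4%) and Scn1a with 6.49% (1.66% to 14.8%). Scn3a led in 5 libraries, and Scn2a led in Lateral, Medial and serotonin 1. The tetrodotoxin-sensitive Scn9a, known from sensory neurons, averaged 2.75%, and Scn7a and Scn11a averaged 0.130% and 0.233%. Scn1a, Scn2a, Scn3a, Scn7a and Scn9a lie together on chromosome 2 between positions 65457118 and 66784914 (mm10), and this neighbourhood holds both the most and some of the least abundant alpha genes. Scn10a and Scn11a lie side by side on chromosome 9, from 119608456 to 119825456, and neither exceeded 3.01 CPM in any library.

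The calcium channel alpha1 genes had no constant leader. By level per length, Cacna1b (N-type) led in datL 1, datM 1 and both serotonin libraries with 28% to 43.3% of the alpha1 total. Cacna1e (R-type) led in datL 2 with 52.4% and in Lateral with 24.8%, and Cacna1h (T-type) led in datM 2 with 28.1% and in Medial with 30.2%. The summed Cav3 share ran from 3.04% in datL 2 to 52.5% in Medial, and was 33.0% and 16% in the serotonin pair. Cav1 genes took 13.1% to 48.0%, with the highest share in datM 1. The mean share of Cacna1d was 12.8%, against 11.4% for Cacna1c, the other L-type gene of brain. The plot of alpha shares shows Scn3a or Scn2a as the leading sodium channel gene of each library and 3 different leaders among the calcium channel genes, also between the 2 libraries of datL and of datM.

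**Figure D2:**
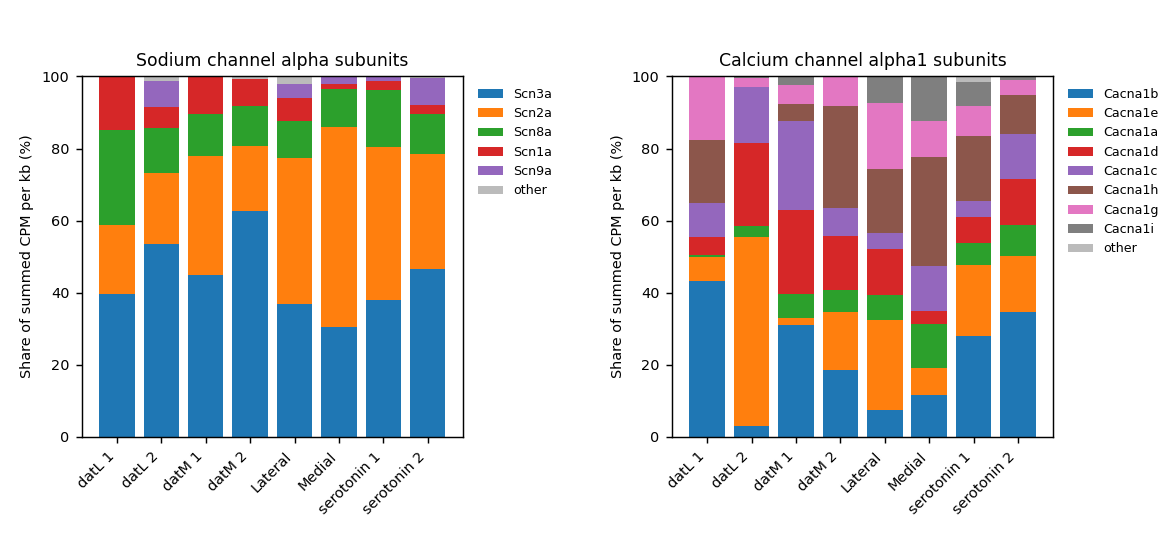
Stacked share (%) of each gene in the summed CPM per kb of sodium channel alpha genes (left) and calcium channel alpha1 genes (right) in each of the 8 libraries. Scn3a and Scn2a together fill most of every left bar, whereas the leading gene on the right is Cacna1b, Cacna1e or Cacna1h depending on the library.

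Among the helper subunits, Scn3b, Scn2b and Cacnb3 had the highest mean level per length of all channel genes over the 8 libraries. Cacnb3, a calcium channel beta subunit of brain, averaged 41.1 ± 15.9 CPM per kb (SD, n = 8), Scn3b 37.8 ± 18.1, Scn2b 20.3 ± 18.2 and Scn3a 12.5 ± 8.90. The neighbours in this order differed by less than their spread between libraries. Scn2b ran from 3.85 CPM per kb in datM 1 to 52.8 CPM per kb in datL 2, and lay below Scn3a in datM 1 and in Medial. Cacnb3 led the 4 beta genes in all 8 libraries with 46.6% to 95.1% of their total. Scn3b led the sodium channel beta genes in 7 libraries, and Scn2b led in datL 2 with 65.6%. Cacna2d3 and Cacna2d1, calcium channel alpha2delta genes, averaged 46.1% and 35.3% of their class, and Cacna2d4 reached 54.6% in datL 1 only.

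The comparison of dopamine with serotonin libraries asked which channel RNAs differ between these 2 neuron types. The fast sodium channel genes Scn1a and Scn8a, the calcium channel beta gene Cacnb4 and the alpha2delta gene Cacna2d3 were higher in each of the 6 dopamine libraries than in either serotonin library. Cacng2 and Cacng7, 2 genes of the gamma family, were lower in each dopamine library. None of these passed the adjusted threshold of edgeR's quasi-likelihood test over all genes, where no gene of any kind passed (0% of 13806 genes tested). The comparison within lane 8, Lateral and Medial against the same serotonin libraries, gave Scn2a and Cacnb4 the smallest p-values, again short of the adjusted threshold. Over all libraries, 4 of the 6 dopamine libraries were from October and both serotonin libraries from lane 8. Run is thus partly mixed with neuron type there, and means over the 6 dopamine libraries pool both runs and all dopamine labels. Within lane 8 the E18 mark is found on Lateral and Medial alone, so it cannot be told apart from neuron type. In such RNA from mixed tissue, fewer cells of a type and less RNA per cell cannot be told apart.

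Of the 40 channel genes, 32 passed the expression filter over all libraries and 29 within lane 8. Over all libraries 2 of the 32 had an unadjusted p under 0.05, against 4.74% of all genes tested. Every dopamine library lay above every serotonin library for 4 of the 32 (3.06% of all genes) and below for 2 (8.59% of all genes). The log2 fold change was above 0 for 26 of the 32, against 58.9% of all genes, and its median was 0.80, against 0.26. Within lane 8 it was above 0 for 18 of the 29, against 50.9% of all genes, and without the Lateral library for 14 of 31, against 45% of all genes, with 7 genes changing sign. With library totals alone in place of TMM factors, the all-library median over all genes moved to 0.14 and 23 of the 32 were above 0. Within lane 8 no channel gene passed, against 2 of 13400 genes (0.0149%), and 2 of the 29 had an unadjusted p under 0.05, against 13.6% of all genes. There Lateral and Medial lay above both serotonin libraries for 11 of the 29 (25% of all genes) and below for 4 (24.6% of all genes). These 2 comparisons share the serotonin libraries and the Lateral and Medial libraries.

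Scn1a (ENSMUSG00000064329.7, chromosome 2, 66270781 to 66440840) is the sodium channel gene best known from inherited epilepsies. It stood at 30.5 and 21 CPM in datL, at 24.3 and 44.0 CPM in datM, at 20.0 CPM in Lateral and at 6.38 CPM in Medial. Serotonin libraries 1 and 2 had 3.09 and 4.97 CPM. Medial was the lowest dopamine library and lay close above the serotonin pair, while the other 5 were all at 20.0 CPM or more. The means were 24.4 ± 12.5 CPM (SD, n = 6) and 4.03 ± 1.33 CPM (n = 2). This is a log2 fold change of 2.76 (SE 1.45, adjusted p = 1.00 in edgeR's quasi-likelihood test).

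Scn8a (ENSMUSG00000023033.8, chromosome 15, 100870683 to 101045929), the main alpha subunit at mature spike initiation sites, stood at 59.6 and 51.5 CPM in datL, 29.1 and 69.4 CPM in datM, 34.5 CPM in Lateral and 43.8 CPM in Medial. Both serotonin libraries were lower, at 21.2 and 22.8 CPM. The groups did not overlap, with a gap from 22.8 to 29.1 CPM. On the log2 scale the difference was 1.27 (SE 0.80, adjusted p = 1.00 in edgeR's quasi-likelihood test).

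Scn3a (ENSMUSG00000057182.8, chromosome 2, 65457118 to 65567627) had the highest mean share of the alpha genes, and stood at 91.9 and 224 CPM in datL, 117 and 402 CPM in datM, 129 CPM in Lateral and 132 CPM in Medial, where Scn2a was higher. The serotonin libraries had 52.6 and 99.2 CPM. The groups overlapped, since datL 1 lay below serotonin 2. The log2 fold change in edgeR's quasi-likelihood test was 1.41 over all libraries (SE 0.66, adjusted p = 1.00) and 0.70 within lane 8 (SE 0.40, adjusted p = 0.523).

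Scn2a (ENSMUSG00000075318.6, chromosome 2, 65620857 to 65767447), an alpha subunit of early axons, stood at 33.0 and 60.4 CPM in datL, 64.1 and 85.9 CPM in datM, 106 CPM in Lateral and 178 CPM in Medial. The serotonin libraries had 43.7 and 50.5 CPM. Lateral and Medial were the highest libraries, and datL 1 was the lowest of all 8. Within lane 8 the log2 fold change was 1.5 (SE 0.38, 95% interval 0.57 to 2.42, adjusted p = 0.289 in edgeR's quasi-likelihood test), and the unadjusted p was 0.00773. Scn2a passed in lane 8 in DESeq2 (adjusted p = 0.0214), which called 787 of 13400 genes (5.87%). In edgeR it passed without the Lateral library (1.78, adjusted p = 0.0250), where 2495 of 14141 genes were called (17.6%) and 4 of 31 channel genes (12.9%). Without the Medial library it was 1.16 (adjusted p = 0.120 in edgeR). Over all libraries the Scn2a log2 fold change was 0.98 (SE 0.65, adjusted p = 1.00 in the same edgeR test). Summed over the 10 alpha genes per length, the level was 18.6 to 51.6 CPM per kb in the dopamine libraries. It was 11.1 and 17.1 CPM per kb in the serotonin libraries, a narrow gap without overlap. The sums of the other subunit families overlapped, as for the alpha1 genes at 7.75 to 14.9 against 8.31 and 7.27 CPM per kb. These sums were not tested.

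**Figure D3:**
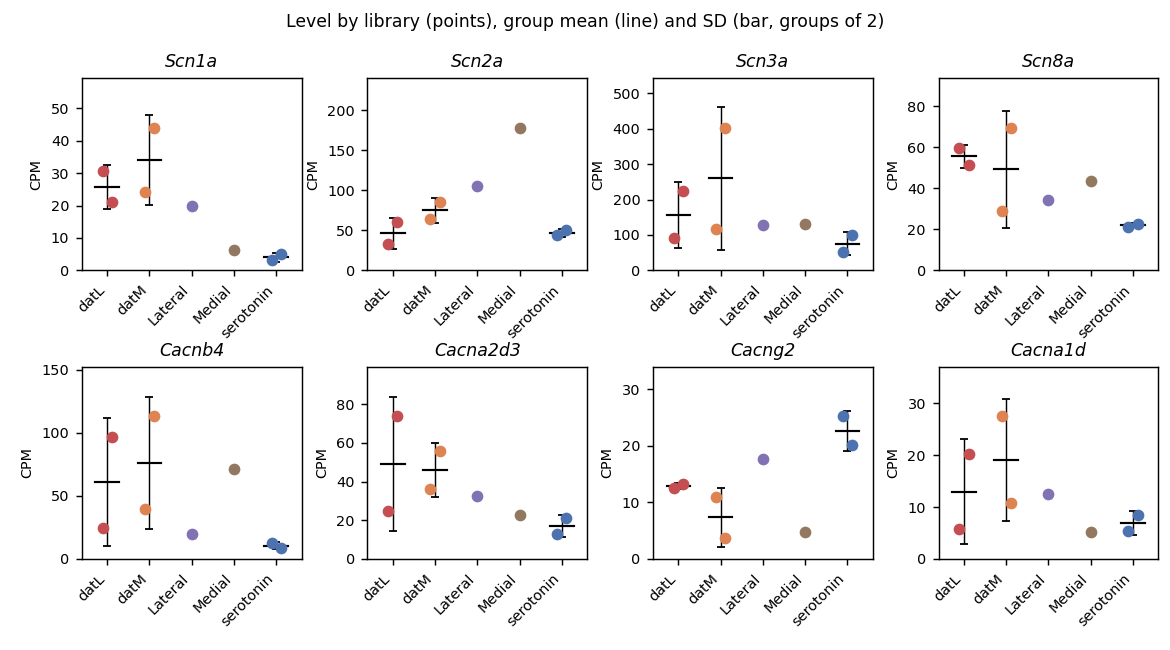
CPM of 8 channel genes in each library (points) by group, with the mean (line) and SD (bar) for the groups of 2 libraries; Lateral and Medial have 1 library each. Scn1a, Scn8a, Cacnb4 and Cacna2d3 lie higher in each dopamine library than in both serotonin libraries and Cacng2 lies lower, while Scn2a, Scn3a and Cacna1d overlap.

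The sodium channel beta genes gave no such separation. Scn3b (ENSMUSG00000049281.9, chromosome 9, 40269216 to 40291618) stood at 80.4 and 154 CPM in datL, 166 and 427 CPM in datM, 180 CPM in Lateral and 225 CPM in Medial, and at 215 and 231 CPM in the serotonin libraries. Scn2b stood at 58.5 and 241 CPM in datL, 17.5 and 201 CPM in datM, 80.8 CPM in Lateral and 27.2 CPM in Medial, with 41.6 and 71.5 CPM in the serotonin libraries. For both genes the dopamine range enclosed both serotonin values.

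Cacnb4 (ENSMUSG00000017412.9, chromosome 2, 52428320 to 52676831), a cytoplasmic beta subunit that binds alpha1, had the smallest p of the channel genes over all libraries. It stood at 24.9 and 96.6 CPM in datL, 39.4 and 113 CPM in datM, 19.5 CPM in Lateral and 71.2 CPM in Medial. Levels of 12.6 and 8.61 CPM in the serotonin libraries lay below all 6 dopamine libraries. The means were 60.8 ± 38.9 CPM (SD, n = 6) and 10.6 ± 2.79 CPM (n = 2). The corresponding log2 fold change was 2.66 (SE 0.98, 95% interval 0.52 to 4.80, adjusted p = 0.857 in edgeR's quasi-likelihood test, unadjusted p = 0.0191). Within lane 8 it was 1.98 (SE 0.77, adjusted p = 0.353 in the same edgeR test), and it passed without the Lateral library (2.62, adjusted p = 0.0304 in edgeR), as did 17.6% of all genes. Without the Medial library it was 0.87 (adjusted p = 0.521 in edgeR). Of the other beta genes, Cacnb3 ran from 44.7 CPM in datM 2 to 203 CPM in Medial, with 155 and 169 CPM in the serotonin pair.

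Cacna1d (ENSMUSG00000015968.10, chromosome 14, 30039949 to 30491156) was counted in every library but was not among the abundant genes, ranking 20 of 40 by mean level per length. It stood at 5.86 and 20.1 CPM in datL, 27.4 and 10.8 CPM in datM, 12.5 CPM in Lateral and 5.13 CPM in Medial. The serotonin libraries had 5.36 and 8.54 CPM, inside the dopamine range. The log2 fold change over all libraries was 1.13 (SE 1.62, 95% interval −2.38 to 4.65, adjusted p = 1.00 in edgeR's quasi-likelihood test). Within lane 8 it was 0.29 (SE 1.14, 95% interval −2.51 to 3.08, adjusted p = 0.951 in the same edgeR test), and −0.57 without the Lateral library. The intervals include a severalfold difference in either direction.

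The T-type genes Cacna1h and Cacna1g were among the 6 smallest p-values within lane 8. Cacna1h had 18.6 CPM in Lateral and 43.9 CPM in Medial against 14.7 and 7.72 CPM in the serotonin libraries, while datL had 21.7 CPM and 0 and datM 6.02 and 21.3 CPM. Cacna1g had 20.1 CPM in Lateral and 15.1 CPM in Medial against 6.89 and 3.02 CPM, and 22.7, 2.56, 6.50 and 6.45 CPM in the October libraries. Both were higher in Lateral and Medial than in the serotonin pair, and both overlapped it once the October libraries were included. The lane 8 log2 fold changes were 1.37 for Cacna1h (SE 0.76, adjusted p = 0.509) and 1.75 for Cacna1g (SE 0.98, adjusted p = 0.512) in edgeR's quasi-likelihood test. Cacna2d3, a subunit that aids delivery of the channel to the membrane, had 24.5 and 73.6 CPM in datL, 35.9 and 55.8 CPM in datM, 32.5 CPM in Lateral, 22.7 CPM in Medial, and 12.9 and 21.1 CPM in the serotonin libraries.

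Among the gamma genes, Cacng2 (stargazin, chromosome 15, 77991748 to 78120028) was lower in the dopamine libraries, with 12.5 and 13.3 CPM in datL, 11.0 and 3.70 CPM in datM, 17.7 CPM in Lateral and 4.73 CPM in Medial. The serotonin libraries had 25.2 and 20.1 CPM. Cacng7 had at most 5 reads (0.151 CPM) in a dopamine library, and 48 and 11 reads (1.63 and 0.377 CPM) in the serotonin libraries. Its log2 fold change was −4.03 (SE 1.81, adjusted p = 1.00 in edgeR's quasi-likelihood test, unadjusted p = 0.0457). Cacng3, also an AMPA receptor partner, had 36.7 CPM in Lateral and 74.8 CPM in Medial against 18.6 and 23.4 CPM in the serotonin pair, a lane 8 log2 fold change of 1.31 (SE 0.54, adjusted p = 0.374 in edgeR's quasi-likelihood test). It was 1.70 without the Lateral library (adjusted p = 0.0463 in edgeR, where 17.6% of all genes passed) and 0.80 without the Medial library (adjusted p = 0.426). In the October libraries Cacng3 had 0.0441, 0.153, 6.24 and 70.1 CPM, so that the dopamine range enclosed the serotonin values.

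**Figure D4:**
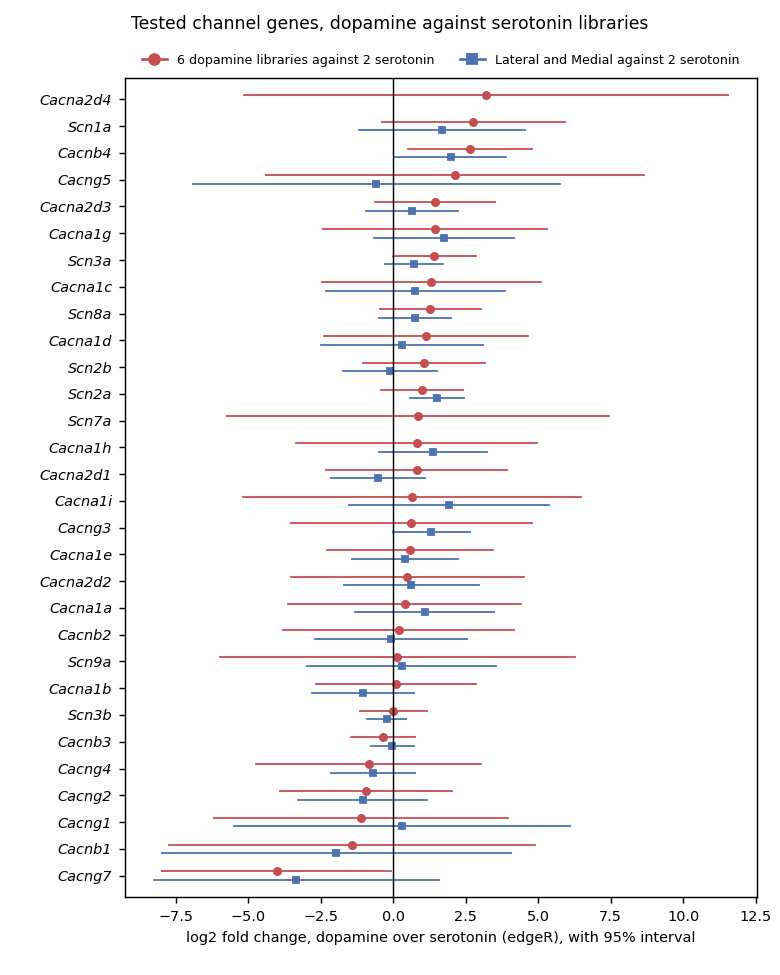
Log2 fold change of dopamine over serotonin with its 95% interval from edgeR for channel genes tested over all libraries (circles) and within lane 8 (squares). Most circles lie right of 0, and nearly all intervals include 0; over all libraries the intervals of Cacnb4 and Cacng7 do not, and within lane 8 those of Scn2a and Cacnb4 do not.

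The comparison of datL with datM libraries asked how the 2 sets of October dopamine libraries differ. Cacng3 and Cacng5 were the channel genes with the smallest p-values and were lower in datL. Of 35 channel genes tested, none passed the adjusted threshold, and neither did any of the 15177 genes tested (0%). At an unadjusted p under 0.05 there were 2 of the 35, against 6.29% of all genes. Both datL libraries lay above both datM libraries for 2 of the 35, Cacna2d2 and Cacng2 (11.3% of all genes), and below for 5, Cacna1a, Cacng3, Cacng5, Scn2a and Scn3b (13.2% of all genes). The sum over 10 GABA neuron markers was 818 and 717 CPM in the datL libraries and 134 and 247 CPM in the datM libraries. Other sums also moved with the labels: the 12 dopamine neuron markers had 451 and 1110 CPM in datL against 2187 and 1629 CPM in datM, and 8 vascular markers 9.03 and 62.6 CPM against 87.8 and 154 CPM. The sum over 14 progenitor and astrocyte markers overlapped, with 3798 and 2100 CPM in datL and 5242 and 3385 CPM in datM. Nes, a progenitor marker of that list, stood at 20.1 and 26.1 CPM in datL and at 269 and 315 CPM in datM. The part of these markers in the channel values was not tested.

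Cacng5 had no read in datL 1 and 0.0381 CPM in datL 2, against 34.5 and 54.3 CPM in datM. It stood at 1.69 CPM in Lateral, 4.01 CPM in Medial, and 0 and 8.03 CPM in the serotonin libraries, so the datM pair was the highest of all. The log2 fold change of datL over datM was −10.78 (SE 4.07, adjusted p = 0.606 in edgeR's quasi-likelihood test), which rests on 1 read in datL. For Cacng3 it was −8.44 (SE 2.15, adjusted p = 0.606 in the same edgeR test), from 1 and 4 reads in datL. It ran from −9.55 without datL 2 to −5.87 without datM 2, as the datM pair itself stood at 6.24 and 70.1 CPM. For Scn3b it was −1.26 (SE 0.63, adjusted p = 0.606 in edgeR). Scn9a and Cacnb1 were at 0 in both datM libraries and were each counted in only 1 datL library, at 26.2 CPM in datL 2 and 8.90 CPM in datL 1. With 3 counts over the datM group as the limit, the pooled datL levels were at least 240-fold and 70.6-fold higher, but each rests on a single library, and the adjusted p of edgeR's quasi-likelihood test was 0.606 for both. DESeq2 called Cacng3 (adjusted p = 2.84e-07), Cacng5 (adjusted p = 0.000495) and Scn9a (adjusted p = 5.60e-12), and 1609 of 15177 genes in all (10.6%). Cacna1d differed by −0.49 on the log2 scale (SE 1.91, adjusted p = 1.00 in edgeR), and the sign turned without datL 1 or without datM 1.

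The spread between libraries of the same label was large in October. Of the channel genes with at least 5 CPM in either library, 15 of 23 differed by more than 2-fold between the datL libraries, 15 of 22 between the datM libraries and 6 of 25 between the serotonin libraries. These are 65.2%, 68.2% and 24%, against 70.0%, 64.2% and 17.0% of all genes. The median absolute log2 ratio was 1.93, 1.44 and 0.52, against 1.80, 1.62 and 0.38 over all genes. Within datL, 6 of the 23 were present in 1 library and had at most 3 counts in the other (26.1%, against 19.7% of all genes): Cacna1h, Cacna2d4 and Cacnb1 in datL 1 alone, and Cacna2d1, Cacng4 and Scn9a in datL 2 alone. Within datM this held for Cacng4 alone, 4.55% of 22 genes against 19.6% of all genes, and within serotonin for Cacng5 alone, 4% against 0.979%. Cacna2d1, the alpha2delta subunit known as the binding site of gabapentin, is an example: it had 0.0881 CPM in datL 1 and 118 CPM in datL 2, and 15.1 to 106 CPM in every other library.

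**Figure D5:**
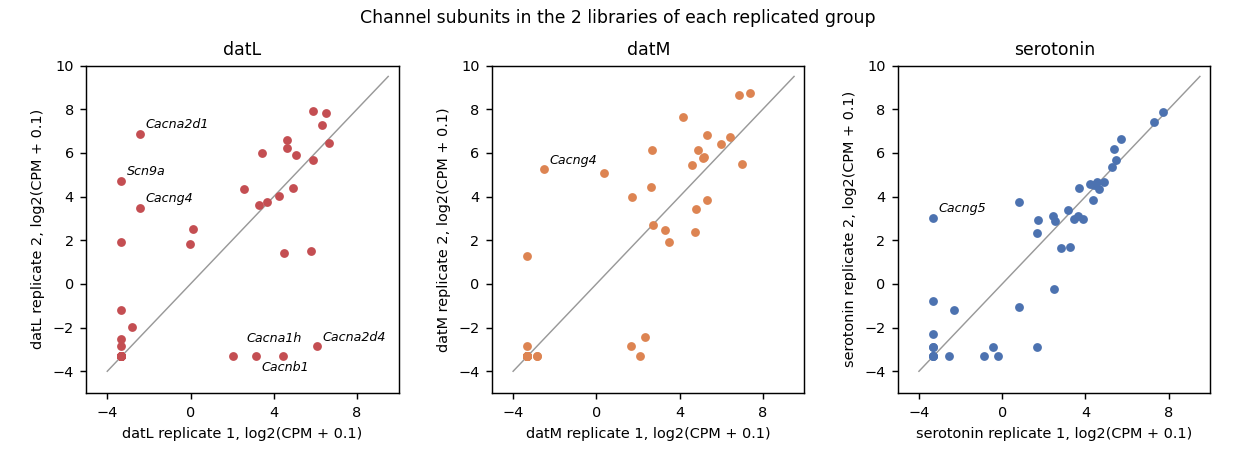
Level of the 40 channel genes in replicate 1 (x axis) against replicate 2 (y axis) of datL, datM and serotonin, as log2(CPM + 0.1); the line marks equal levels, and genes are named where 1 library had at least 5 CPM and the other at most 3 counts. The serotonin points lie closest to the line, and 6 genes are named in datL against 1 in each other pair.

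The comparison of Lateral and Medial with the October dopamine libraries set the 2 runs side by side, where run, E18 mark and label cannot be told apart. Since Lateral and Medial have 1 library each, the spread within labels in this test came from the datL, datM and serotonin pairs. Of 35 channel genes tested none passed, as for all 15177 genes (0%), and 2 had an unadjusted p under 0.05 (7.29% of all genes). Lateral and Medial lay above all 4 October libraries for 5 of the 35 (12.7% of all genes), among them Cacna1i, Cacnb3, Cacng1 and Scn2a, and below for 1, Scn1a (2.52% of all genes). Cacng3 had a log2 fold change of 4.56 (SE 1.36, adjusted p = 0.670 in edgeR) and Scn2a of 1.05 (SE 0.58, adjusted p = 0.758 in edgeR). Cacna1i, a T-type gene, had 7.80 CPM in Lateral and 18 CPM in Medial against 0 to 3.12 CPM in October, a log2 fold change of 4.32 (SE 2.52, adjusted p = 0.785 in edgeR). Scn9a, with 12.1 CPM in Lateral, 7.09 CPM in Medial and reads in datL 2 alone among the October libraries, had a log2 fold change of 5.09 (SE 2.88, adjusted p = 0.783 in edgeR). Cacna2d4 had no read in Lateral or Medial, and 68.3, 0.0381, 4.11 and 0 CPM in October. Its pooled October level was at least 308-fold higher, against 3 counts over Lateral and Medial (adjusted p = 0.710 in edgeR), and rests mainly on datL 1. DESeq2 called Cacng3, Scn9a and Cacna2d4 here (adjusted p = 0.00488, 0.000614 and 0.0157), among 907 of 15177 genes (5.98%). The Cacna1d log2 fold change was −1.14 (SE 1.74, adjusted p = 1.00 in edgeR).

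Lateral and Medial have 1 library each, so their ratio has no replicate check, and the intervals given cover counting error only. Of the 27 channel genes with at least 100 counts in either library, 10 were over 2-fold higher in Lateral (25.2% of 11685 genes with such counts) and 8 over 2-fold lower (24.1%). Medial was higher for Cacna1c, 3.75-fold (95% interval 3.07 to 4.6), Cacnb2, 3.73-fold (3.05 to 4.56), Cacnb4, 3.66-fold (3.34 to 4.01), Cacna1h, 2.36-fold (2.13 to 2.62), and Cacna1a, the P/Q-type gene, 2.34-fold (2.02 to 2.72). Lateral was higher for Cacnb1 and Scn11a, which had 108 and 100 reads in Lateral and none in Medial, at least 24.3-fold and 22.5-fold against a limit of 3 counts. Cacng2 was higher at 3.74-fold (3.03 to 4.64) and Scn1a at 3.13-fold (2.61 to 3.78). Scn3a was level, at 0.98-fold (0.94 to 1.03), and Cacna1d was 2.44-fold higher in Lateral (1.98 to 3.02). Beside these ratios, Medial held a higher summed level of 6 glutamate neuron markers, 479 CPM against 86.4 CPM in Lateral, and a lower level of 10 GABA neuron markers, 675 against 1143 CPM. Medial also held more of the progenitor and astrocyte markers (4224 against 2142 CPM), of the oligodendrocyte markers (429 against 203 CPM), of the vascular markers (124 against 37.4 CPM) and of the microglia and blood markers (236 against 102 CPM). Their part in the ratios was not tested.

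Genes that work with these channels were followed through 3 lists. Of 31 channel partners, such as calmodulins, ankyrins and fibroblast growth factor homologous factors, 26 were tested over all libraries and none passed in either direction in edgeR's quasi-likelihood test, and likewise none of 25 within lane 8. Calm2, a calmodulin gene, had 1691 to 3514 CPM in the dopamine libraries and 4408 and 4012 CPM in the serotonin libraries, a lane 8 log2 fold change of −1.18 (SE 0.30, adjusted p = 0.290 in edgeR). Unc79, part of the complex of the sodium leak channel, had a lane 8 log2 fold change of 1.41 (SE 0.57, adjusted p = 0.361 in edgeR). Of 15 pacemaking channels, 14 were tested in each comparison and none passed. Kcnn3, a calcium-activated potassium channel, was at 0 to 0.404 CPM in the dopamine libraries and at 1.39 and 2.68 CPM in the serotonin libraries (log2 fold change −4.30, SE 2.21, adjusted p = 1.00 in edgeR). Kcnd3, an A-type potassium channel, had 40.2 CPM in Lateral and 104 CPM in Medial against 26.3 and 19.0 CPM, a lane 8 log2 fold change of 1.56 (SE 0.58, adjusted p = 0.338 in edgeR). It had 4.67 and 21.7 CPM in datL and 2.72 and 113 CPM in datM, so that the dopamine range enclosed the serotonin values.

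Of 28 calcium handling genes, 27 were tested and none passed in either comparison of dopamine with serotonin. The log2 fold change was above 0 for 21 of the 27 over all libraries and for 25 of the 27 within lane 8, against 58.9% and 50.9% of all genes. Calb2, which encodes the calcium buffer calretinin, stood at 272 and 210 CPM in datL, 378 and 509 CPM in datM, 467 CPM in Lateral and 339 CPM in Medial, and at 74.5 and 105 CPM in the serotonin libraries. Each dopamine library was above both serotonin libraries. The log2 fold change was 2.14 over all libraries (SE 0.47, adjusted p = 0.586) and 2.10 within lane 8 (SE 0.36, adjusted p = 0.285) in edgeR's quasi-likelihood test. Camk4, a calcium-activated kinase, had 49.0 to 167 CPM in the dopamine libraries and 21.6 and 45.7 CPM in the serotonin libraries, a log2 fold change of 1.71 (SE 0.69, adjusted p = 0.949 in edgeR).

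The channel genes are long, which raises their counts at a given number of transcripts. Their median exonic length was 6795.5 bases over all 40. Over the 32 tested between dopamine and serotonin it was 7943 bases, against 3713.5 bases over all 13806 genes tested there. Counting ignored strand, so reads over exons shared by genes on opposite strands cannot be told apart. Dcp1a lies across Cacna1d and reached 131 CPM, and Lrtm2 lies across Cacna2d4 and reached 46.9 CPM, but neither shares an exonic base with the channel gene. Chdh, on the other strand, shares 518 exonic bases with Cacna1d, and A430018G15Rik shares 1433 with Cacnb4. Both of these overlapping genes were at 0 CPM in every library. The part of these shared bases in the Cacna1d and Cacnb4 counts was not tested. An antisense gene shares 180 exonic bases with Scn9a and reached 2.91 CPM in datL 1, where Scn9a had no read. Tpsg1 shares 158 exonic bases with Cacna1h and reached 0.892 CPM.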

How the data were processed

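The 8 count tables hold whole-number read counts per gene. Per the submitters' processing notes reads were aligned with STAR to mm10, and per the file headers counts were made with featureCounts 1.4.3-p1 on GENCODE M2 without regard to strand, so the authors' deposited counts are not normalized. Per the labels, cDNA was amplified by long-distance PCR and 10 further cycles and read as 100 bp single reads. Symbols were attached by Ensembl identifier to 37607 of 38924 genes. CPM is the count over the library total (22417739 to 33216710).

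Genes were tested with edgeR 4.0.16 in R 4.3.3: robust quasi-likelihood test, two-sided, TMM factors, the default expression filter, Benjamini-Hochberg adjustment over all genes tested, threshold 0.05. Dopamine was set against serotonin in 2-group models, and the other contrasts were taken from a 5-group model of all libraries. Standard errors came from the fold change and the test statistic. Intervals for Lateral against Medial are exact at 95%. The scripts were tested on simulated counts. Between dopamine and serotonin, 2 of 99 simulated 4-fold changes passed the threshold, and 36 of 100 simulated 16-fold changes. Replicate numbers did not pair the libraries, as the closing section gives.

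Folds were printed for Cacna1d and, per comparison, for the 6 genes of smallest p, and up to 3 genes per partner list. Other genes given levels only, the overlapping genes and the examples of pair spread were chosen after their values were seen. The channel genes and lists were chosen with earlier results of these data known. Alternatives were RLE factors, library totals, other filters, DESeq2 1.42.0, a replicate block, other models, and leaving out each library. Values of a few channel genes that the rule names are not reported here singly, though the counts include them.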

Additional observations from a re-analysis of the deposited data

Results flagged for a closer look

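Among the 27 channel genes with a mean of at least 1 CPM over the 6 dopamine libraries, 2 had a library far from the others by Dixon's test (critical value 0.625 for 6 libraries), both in datL 1. That critical value assumes normally distributed levels, which CPM values with zeros need not follow, so the number expected by chance is not known. Cacna2d4, an alpha2delta subunit known from retina, stood at 68.3 CPM in datL 1, and the next library was at 4.11 CPM. Cacnb1, the beta subunit of skeletal muscle and some neurons, stood at 8.90 CPM in datL 1, and the next library was at 3.25 CPM. The labels do not spell out L and M. With Lateral taken as L and Medial as M, an assumption, lane 8 held 1 library of each and so gave no spread of its own. In edgeR's quasi-likelihood test, their difference was not shown to differ from that between datL and datM for any of 35 channel genes.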

How the results depend on the processing

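Over all libraries, no channel gene passed between dopamine and serotonin under any alternative run, while the number of all genes past the threshold was 0 as reported, 3 without a filter, 2 with a filter at 1 CPM, 133 in DESeq2, 2 in the 5-group model and 0 to 1 when each library was left out (1 without datL 1). Within lane 8 it was 2 as reported, 6 without a filter, 787 in DESeq2 and 12 to 2495 when each library was left out, and channel genes past it were 1 in DESeq2 (Scn2a) and 0 to 4 with a library left out. The 4, without Lateral, were Cacnb4, Scn2a, Cacng3 and Cacnb1, and the lone Medial library is then assumed to vary like the others. Between datL and datM DESeq2 called 1609 genes, 3 of them channel genes (Scn9a, Cacng3 and Cacng5), and for lane 8 against October dopamine 907, again 3 channel genes (Scn9a, Cacna2d4 and Cacng3), with 2 genes called without a filter. Counts of genes without overlap were also recomputed, a choice made after seeing the data. Channel genes above both serotonin libraries in lane 8 numbered 11, and 14 to 18 when a library was left out (18 without Medial), against 32.8% to 43.5% of all genes. Those below numbered 4, and 5 to 9 with a library left out (9 without Lateral, 7 without Medial or serotonin 1), against 32.7% to 43.3% of all genes. Against October, 5 lay above and 1 below, and 6 to 10 above and 1 to 3 below with a library left out (10 without Medial, 8 without Lateral or datM 2, and 3 below without Lateral, Medial or datL 1), against 17.7% to 25.4% and 4.08% to 8.01% of all genes. The Cacna1d log2 fold change ran from −0.57 (without Lateral) to 0.84 in lane 8 when each library was left out, and was −0.0023 without serotonin 1. Between datL and datM it ran from −1.65 to 0.35 (0.13 without datL 1, 0.35 without datM 1), and was 0.13 with Lateral and Medial joined to them. The causes were not tested.

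The replicate numbers did not pair the libraries: deviations of same-numbered libraries correlated at 0.101, 0.0153 and −0.0037. With the replicate block, 0 genes and 0 channel genes passed between dopamine and serotonin and between datL and datM.

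Scn9a and Cacnb1 give no datL to datM value without the only datL library that counted them. Depth limits the rare genes: 3 reads are 0.0903 to 0.134 CPM.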
